A study of Homo sapiens with 41 samples.

Results

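Histone cluster genes carry the replication-dependent histones, and 68 of them were described here across 41 total RNA libraries of a cultured model of the lung alveolus. They were chosen as the genes of the count table whose older symbol begins with HIST1H, HIST2H, HIST3H or HIST4H and that had at least 10 counts summed over all libraries. Of 89 such symbols among 57773 genes, 15 had no count and 6 had 1 to 7 counts. The largest of those left out were HIST2H3PS2 with 7 counts and HIST1H1A with 6, and the smallest of those kept were HIST1H1T with 50 and HIST2H2BA with 58. By the encoded protein, 5 members belonged to the linker histone H1, 16 to H2A, 20 to H2B, 13 to H3 and 14 to H4.

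The study exposed the layered culture for 24 h to gold particles and compared them with an untreated control. The apical side faced air and combined differentiated THP1 cells, from a monocytic leukaemia, with A549 cells, from a lung adenocarcinoma. The basolateral compartment, kept submerged, held the endothelial line that the labels spell EA.hy296. In each compartment the 7 groups were the control, spheres 1000, spheres 500, rods 1000, rods 500, stars 1000 and stars 500, where the labels do not give the unit of the number. Each group had 3 libraries except basolateral spheres 500, which had replicates 1 and 3, and the design text calls them biological replicates. Every library thus came from co-cultured permanent cell lines, the apical ones from a mixture of lines.

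A cell doubles its histones while it copies its DNA, and the cluster genes supply them almost only in S phase. Their messages mostly lack a poly(A) tail and end instead after a short stem-loop, which is bound by the protein SLBP and is needed for processing, translation and decay of the message. Replacement histones such as H3.3 and H2A.Z come from other genes with ordinary polyadenylated messages and are made throughout the cell cycle. Total RNA libraries can hold messages of both kinds.

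The stem-loop was searched in the GENCODE 29 transcripts (GRCh38) of 67 members that could be matched on the transcript strand, with free choice of the letter where the sites below differ within the capitals. It was found in 23 members. Of 58676 GENCODE 29 genes with a transcript, 29 held it, and 26 of these were histone cluster genes. No match says only that the annotated transcript does not hold these letters. Of the 67 members, 34 were matched to GENCODE by identifier and 33 by symbol. The sites of 6 members named below follow in the message sense, written as DNA with the stem-loop in capitals. Their likeness within the capitals was set by the search and is no result about these genes.
HIST2H2AA4 (chromosome 1): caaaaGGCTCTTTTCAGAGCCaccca
HIST1H2AE (chromosome 6): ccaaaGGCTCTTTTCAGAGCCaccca
HIST1H2BG (chromosome 6): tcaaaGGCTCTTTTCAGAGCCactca
HIST1H2BH (chromosome 6): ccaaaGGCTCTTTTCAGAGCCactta
HIST1H4E (chromosome 6): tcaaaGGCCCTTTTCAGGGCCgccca
HIST4H4 (chromosome 12): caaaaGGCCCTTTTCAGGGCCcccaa

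The libraries held 2751299 to 11660653 counts, and 3 counts, taken as the floor of detection, came to 0.257 to 1.09 counts per 1000000 counts of the library (CPM). These floors cover counting error only. Of the genes with 2 to 11 counts, 78.6 to 86.6% had an even count in the single libraries. The cause was not tested, and low counts may hold less independent evidence than their number. Summed markers were highest in the labelled compartments. The 12 epithelial markers, 10 of them with counts, gave 3906 to 4253 CPM in the apical and 582 to 1146 CPM in the basolateral controls. Of these, KRT8 averaged 2495 CPM in the apical controls, and SFTPC, NKX2-1 and AQP5 were at 0. The 12 macrophage markers gave 1194 to 1389 CPM apically and 83.3 to 264 CPM basolaterally. The 11 endothelial markers gave 42.4 to 43.1 CPM in the apical and 2205 to 3027 CPM in the basolateral controls. Apical libraries also held KIT, the stem cell factor receptor known from mast cells, although the labels name no mast cell line. The title of the series calls the model a tetra-culture, while the labels name only the lines given above. By its level they parted into 3 sets of 7, at 760.0 to 973 CPM in replicate 1 of every group, and at 444 to 513 and 103 to 138 CPM among replicates 2 and 3. The 8 mast cell markers, KIT among them, summed to 1209 to 1454, 673 to 751 and 168 to 203 CPM in the same sets. Of the markers other than KIT, HDC averaged 139 CPM and FCER1A 0.127 CPM in the apical controls. These sets were read from the data and are not groups of the study. None of 15 small RNAs without a poly(A) tail, such as RN7SK and RMRP, had a count in any library.

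The histone messages were a small and broad part of each library. The 68 members summed to 3122 ± 783 CPM in the apical libraries (SD, n = 21) and to 3025 ± 769 CPM in the basolateral libraries (SD, n = 20), and the single libraries spanned 0.181 to 0.479% of all counts. In the apical libraries 8 members stood at a mean of 100 CPM or more, 41 between 10 and 100 CPM, 14 between 1 and 10 CPM and 5 below 1 CPM. In the basolateral libraries these numbers were 11, 36, 16 and 5. The 10 most abundant members made up 51.3% of the apical and 53.6% of the basolateral histone counts. In bulk RNA, fewer dividing cells and less histone RNA in each cell cannot be told apart.

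H2A messages led, followed by H2B. H2A members held 42.2 ± 1.29% of the apical histone counts (SD, n = 21) and 41.7 ± 1.64% of the basolateral ones (SD, n = 20), and H2B members held 27.1 ± 1.11% and 26.1 ± 0.976%. H1 members held 13.6 ± 1.35% and 13.8 ± 1.72%. H3 members held 7.15 ± 0.358% apically and 10.3 ± 0.518% basolaterally, and the ranges of 6.40 to 7.69% and 9.29 to 11.2% did not overlap. H4 members held 9.93 ± 0.759% and 8.13 ± 0.955%, with overlapping ranges. These are shares of the counts, which also follow the length of the messages.

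HIST2H2AA4, which encodes an H2A of the HIST2 cluster on chromosome 1, was the most abundant member in both compartments. Its level ran from 178 to 327 CPM in the apical libraries, with a median of 255 CPM, and from 186 to 381 CPM in the basolateral libraries, with a median of 273 CPM. Its identifier in the count table, ENSG00000203812, belongs in GENCODE 29 to the gene at 149842188 to 149842736 (GRCh38, minus strand), which that release calls HIST2H2AA3. The stem-loop and length given here under HIST2H2AA4 are those of this identifier. Its message is the same as that of a second H2A gene, with 100% of its 50-base words shared, so the counts of HIST2H2AA4 and HIST2H2AA3 could be split either way by the authors' counting. Per kilobase of annotated exon, the H2A gene HIST1H2AJ came first with a mean of 580 CPM per kilobase apically and 614 CPM per kilobase basolaterally. HIST2H2AA4 followed with 477 and 493 CPM per kilobase. The annotated exon had 387 bases without the stem-loop for HIST1H2AJ and 549 bases with it for HIST2H2AA4. The order therefore also follows the annotation, and HIST1H2AJ was matched to it by symbol only. HIST1H2AJ shared 83.7% of its 50-base words with HIST1H2AI, so these levels are uncertain too.

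The linker histone messages HIST1H1C and HIST1H1B, for H1.2 and H1.5, shared no such words with another histone cluster gene. Genes outside the clusters were not searched. HIST1H1C measured 165 ± 49.4 CPM apically (SD, n = 21) and 162 ± 63.3 CPM basolaterally (SD, n = 20). HIST1H1B measured 148 ± 59.7 and 151 ± 52.0 CPM. The leading H2B message was HIST1H2BO with 126 ± 35.3 and 142 ± 45.8 CPM. The leading H3 message was HIST1H3C with 59.2 ± 15.4 CPM apically and 154 ± 40.2 CPM basolaterally. The leading H4 message was HIST1H4C apically and basolaterally, with 86.5 ± 23.1 and 50.3 ± 15.5 CPM. The small clusters gave little, with HIST3H2A at 10.3 ± 2.01 and 8.70 ± 2.92 CPM and HIST4H4, a lone H4 gene on chromosome 12, at 10.4 ± 3.06 and 9.95 ± 4.11 CPM. HIST1H1T, an H1 known from testis, reached at most 0.469 CPM apically and 1.39 CPM basolaterally.

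**Figure D1:**
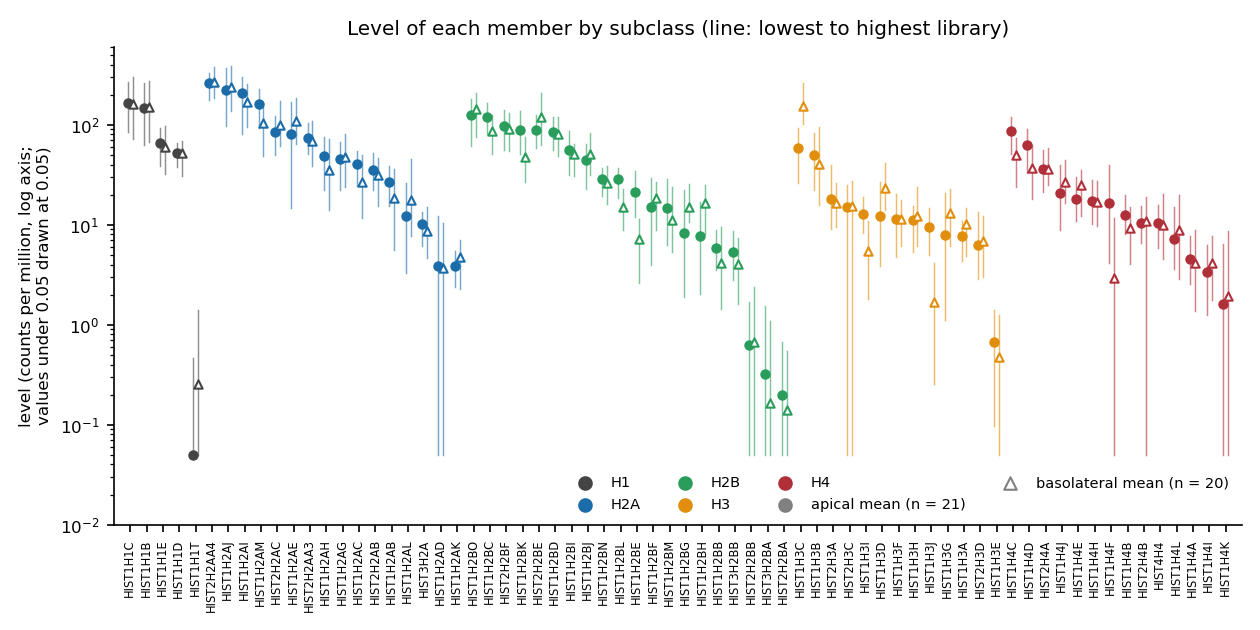
The level of each member in CPM on a log axis, ordered by subclass and apical mean. Filled circles are means of the 21 apical and open triangles means of the 20 basolateral libraries, and each line runs from the lowest to the highest library. H2A members reach the highest levels, near 270 CPM, and a few members stay below 1 CPM.

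The first question was whether gold particles changed histone messages. None of the members was called in any of the 12 comparisons with control, at an adjusted p under 0.05 in edgeR's quasi-likelihood test, among 65 apical and 64 basolateral members that passed the filter on low counts. The background was 0.0% of 15225 apical and 0.0% of 14594 basolateral genes in each comparison. At an unadjusted p under 0.05 stood 1 member in apical rods 1000, 2 in basolateral rods 1000, 2 in basolateral stars 1000 and 0 in the others. Of all apical genes 2.37% reached that level in spheres 1000, 1.87% in spheres 500, 1.77% in rods 1000, 2.65% in rods 500, 2.43% in stars 1000 and 2.46% in stars 500. Of all basolateral genes it was 1.93, 0.857, 2.34, 0.939, 0.952 and 0.994% in the same order. DESeq2 called 0 members in each comparison. A test over all 7 groups of a compartment likewise called 0 members (0 with an unadjusted p under 0.05), where 212 apical and 99 basolateral genes had an unadjusted p under 0.05. DESeq2 called 0 members in these tests too.

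The median log2 difference over the members from the apical control was -0.11 in spheres 1000, 0.24 in spheres 500, 0.13 in rods 1000, -0.04 in rods 500, 0.21 in stars 1000 and 0.09 in stars 500. From the basolateral control it was 0.23, -0.05, 0.18, 0.12, 0.14 and 0.10 in the same order. The medians over all genes lay between -0.00 and 0.03 in these comparisons, which share their control libraries within a compartment. The median standard error of a single member's log2 difference was 0.356 to 0.415. It is not the error of a median over members, which was not computed. Members above control ran from 16 of 65 in apical spheres 1000 to 57 of 65 in apical spheres 500. Basolaterally they ran from 24 of 64 in spheres 500 to 57 of 64 in spheres 1000.

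The summed level of every particle group overlapped that of its control. The apical controls measured 3633, 3128 and 2168 CPM in replicates 1, 2 and 3. Spheres 500 measured 3447, 3725 and 3460 CPM, and rods 500 measured 4320, 1873 and 2370 CPM. Spheres 500 thus held no low library and rods 500 held 2, which were the libraries with KIT at 103 to 138 CPM described above. With the library set by KIT as a block, chosen after seeing the data, the members' median log2 difference was -0.00 instead of 0.24 in spheres 500 and 0.18 instead of -0.04 in rods 500. Still 0 members were called in edgeR in the 6 apical comparisons. At an unadjusted p under 0.05 stood 3, 1, 5, 6, 9 and 4 of 65 members in spheres 1000, spheres 500, rods 1000, rods 500, stars 1000 and stars 500, against 805, 391, 695, 969, 979 and 911 of 15225 genes. In the basolateral compartment the controls measured 3634, 2490 and 2220 CPM, and the highest library of all was replicate 1 of spheres 1000 with 4793 CPM, beside 2830 and 2187 CPM in its replicates 2 and 3.

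**Figure D2:**
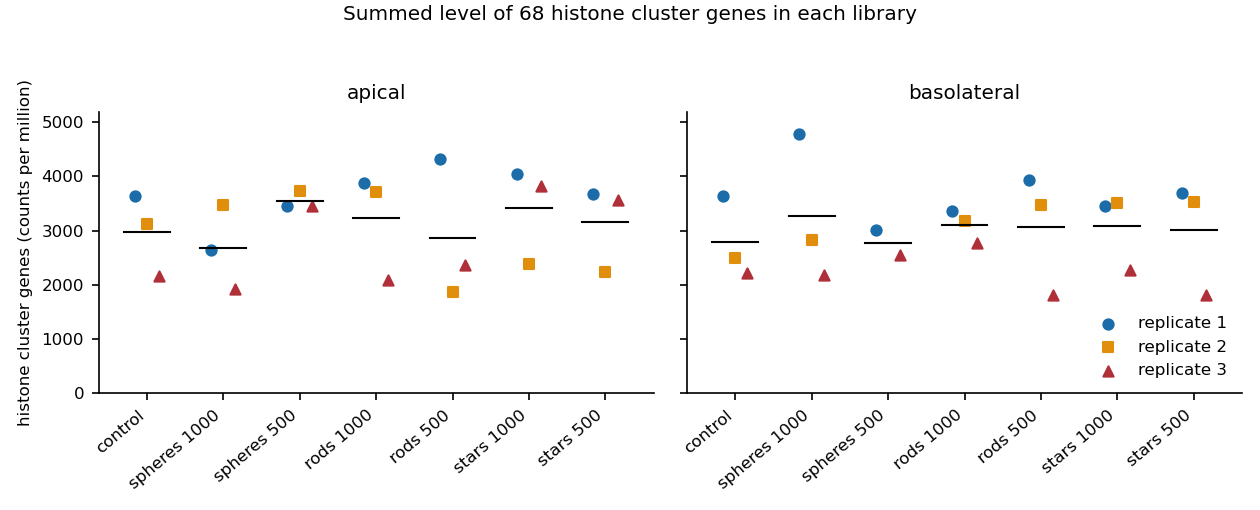
The summed level of the 68 members in each library in CPM, by group, with the mean of a group as a line and the replicate number as colour and shape. Every particle group overlaps its control, and basolateral replicate 3 lies below replicate 1 in every group.

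HIST4H4 had the smallest p of the apical members in rods 1000 and in rods 500. It measured 8.29, 9.34 and 5.80 CPM in replicates 1, 2 and 3 of apical rods 1000, against 12.4, 13 and 10.9 CPM in the apical control. The exposed libraries all lay below the controls, as did those of 3.5% of all genes, and the log2 difference of -0.63 ± 0.29 (SE) had an unadjusted p of 0.0449 and an adjusted p of 1 in edgeR. In basolateral rods 1000 the same gene measured 13.9, 7.80 and 9.59 CPM against 7.77, 4.91 and 12.6 CPM. The direction there was the other one, within overlapping groups.

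HIST2H2AA4 measured 308, 381 and 249 CPM in basolateral rods 1000 against 275, 214 and 186 CPM in the control. The groups overlapped, and the log2 difference was 0.44 ± 0.20 (unadjusted p = 0.0381, adjusted p = 1 in edgeR). The H4 gene HIST1H4A measured 8.86, 4.59 and 4.26 CPM there against 3.28, 1.73 and 2.84 CPM. All exposed libraries lay above the controls, as for 4.84% of genes (log2 difference 1.13 ± 0.51, unadjusted p = 0.0404, adjusted p = 1 in edgeR). In basolateral stars 1000 HIST1H4C measured 73.0, 55.7 and 72.0 CPM against 48.4, 24.1 and 48.3 CPM. These groups did not overlap either, as for 3.49% of genes (log2 difference 0.72 ± 0.33, unadjusted p = 0.0417, adjusted p = 1 in edgeR). The H3 gene HIST1H3D followed with 0.61 ± 0.28 (unadjusted p = 0.0403), with overlapping groups.

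In the other comparisons the members with the smallest p had unadjusted p from 0.0684 (HIST1H3E in apical spheres 500) upwards. HIST1H3E, an H3 gene, was near the floor, with 6, 10 and 9 counts in apical spheres 500 and 1, 4 and 3 counts in the control. HIST1H4K, an H4 gene whose sequence is shared with HIST1H4J, had 18 counts in 1 apical control library and 0 in the others of control and spheres 1000, so no fold is given. Whether particles acted differently in the compartments was tested directly, and 0 of 65 members were called for each of the 6 particle groups (0.0% of 16352 genes), with 0 or 1 member at an unadjusted p under 0.05 in edgeR.

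**Figure D3:**
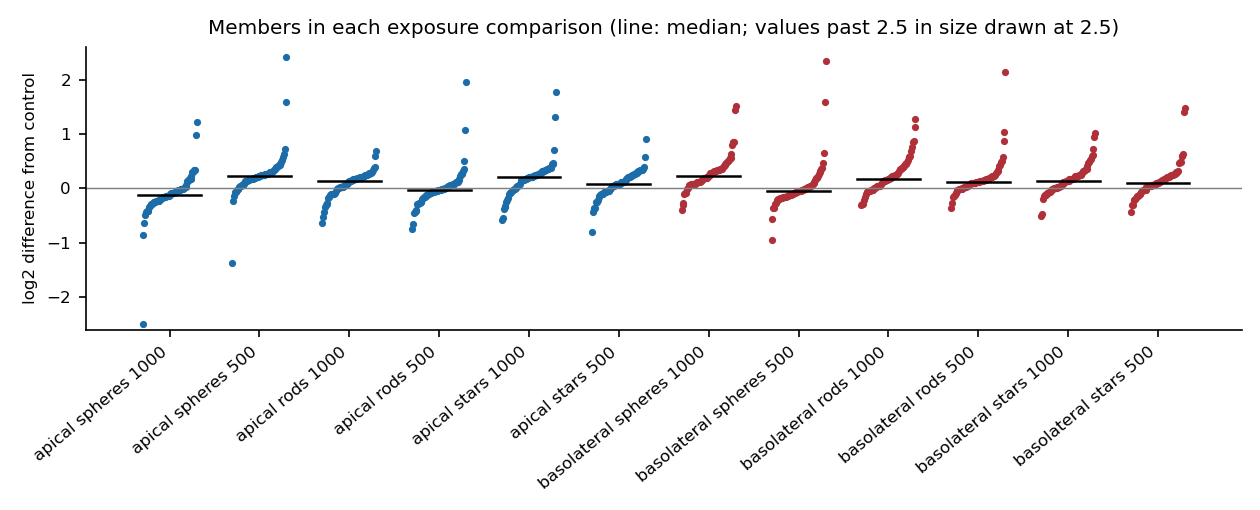
The log2 difference from control of each tested member in the 12 comparisons, apical in blue and basolateral in red, with the median as a line. Medians lie between -0.11 and 0.24, and no point passes the test. One value beyond the axis, HIST1H4K in apical spheres 1000, is drawn at its edge.

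Histone messages did differ between replicate numbers, with more members called in the basolateral compartment. There 41 of 64 members were called in edgeR's test over the 3 numbers with group in the model, all of them lower in replicate 3 than in replicate 1, against a background of 24.0% of 14594 genes. The median log2 difference of replicate 3 from replicate 1 was -0.66 over the members and 0.00 over all genes. All 64 members pointed down, and DESeq2 called 46 of 66 members and 3852 of 16535 genes. The summed level was 3009 to 4793 CPM in the 7 libraries of replicate 1, 2490 to 3530 CPM in the 6 of replicate 2 and 1814 to 2771 CPM in the 7 of replicate 3. Replicates 1 and 3 did not overlap, while replicate 2 overlapped both.

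All 4 tested linker histone genes were called there. HIST1H1C, the H1.2 gene, was 222 ± 48.5, 167 ± 31.5 and 97.1 ± 19.5 CPM in basolateral replicates 1, 2 and 3 (SD, n = 7, 6 and 7; adjusted p = 0.00238 in edgeR). HIST1H1D, the H1.3 gene, was 59.4 ± 6.03, 58.4 ± 6.45 and 38.2 ± 5.82 CPM (adjusted p = 0.000631 in edgeR). Replicate 3 lay below every library of replicate 1 for both genes. Of the core histones, 11 of 16 H2A, 13 of 18 H2B, 8 of 12 H3 and 5 of 14 H4 members were called. The median log2 difference was -0.70, -0.66, -0.69 and -0.54 in these subclasses and -0.80 for H1.

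HIST1H2BO, the leading H2B message, was 188 ± 23.8, 147 ± 23.7 and 92.4 ± 15.3 CPM in basolateral replicates 1, 2 and 3 (adjusted p = 1.8e-05 in edgeR). Its 7 libraries of replicate 3 reached 112 CPM and those of replicate 1 began at 141 CPM. HIST1H2AC, an H2A gene, was 35.4 ± 7.42, 27.6 ± 4.19 and 17.1 ± 3.26 CPM (adjusted p = 0.000281 in edgeR). HIST2H2AA4, the most abundant member, moved less, with a log2 difference of -0.39 (adjusted p = 0.00509 in edgeR). Its means were 302 ± 29.6, 296 ± 55.9 and 218 ± 26 CPM. HIST1H4C, the leading basolateral H4 message, was 56.3 ± 15.4, 52.3 ± 15.5 and 42.7 ± 14.6 CPM and was not called.

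HIST1H4F, an H4 gene in the HIST1 cluster on chromosome 6 (26240426 to 26240737, GRCh38, plus strand), had the steepest difference of the called members. It measured 4.16 to 11.7 CPM in basolateral replicate 1, 0.466 to 2.75 CPM in replicate 2 and 0 to 0.754 CPM in replicate 3, where the median library had 0 counts. The 3 numbers did not overlap except between replicates 2 and 3 (log2 difference -5.09, adjusted p = 1.33e-05 in edgeR). KIT lay beside it at 54.2 to 166, 12.1 to 39.6 and 0 to 9.04 CPM in the same libraries. In the apical libraries HIST1H4F was 25.4 to 39.4 CPM in replicate 1 and 4.14 to 16 CPM in replicates 2 and 3, without overlap (adjusted p = 0.000362 in edgeR over the 3 numbers).

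Markers of other cells and of division moved with the basolateral replicate number. The 12 epithelial markers summed to 1118 ± 249 CPM in replicate 1, 791 ± 83.6 CPM in replicate 2 and 642 ± 152 CPM in replicate 3, and the 12 macrophage markers to 316 ± 67.3, 177 ± 28.5 and 101 ± 43.5 CPM. The endothelial markers ran the other way, at 2153 ± 224, 2747 ± 187 and 2864 ± 170 CPM. Of 28 genes of DNA replication and S phase 17 were called lower in replicate 3 and 0 higher. Of 22 genes of G2 and mitosis 10 were called lower and 0 higher, where 24.0% of all 14594 genes were called in either direction. The S phase sum was 2059 ± 103, 1991 ± 88.2 and 1579 ± 177 CPM. The part of these markers in the histone difference was not tested.

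**Figure D4:**
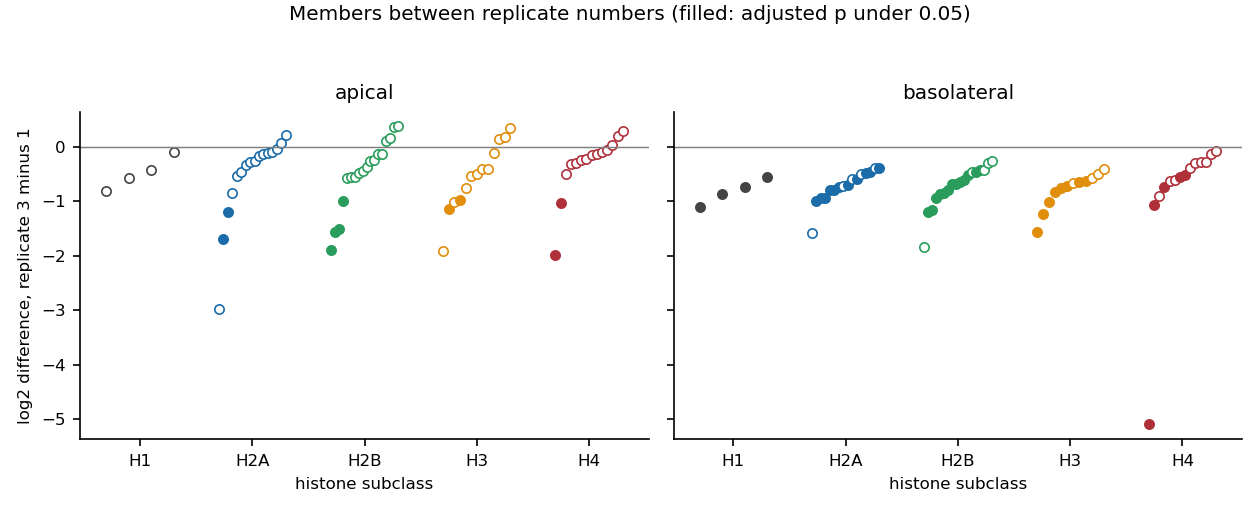
The log2 difference of replicate 3 from replicate 1 for each tested member, by histone subclass, in the apical and the basolateral libraries. Filled points passed the test over the replicate numbers, 10 apical and 41 basolateral ones, and all filled points lie below 0.

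In the basolateral libraries, of 11 replacement histone genes 4 were lower in replicate 3, namely H2AFZ (log2 difference -0.26), H1FX (-0.27), H2AFY2 (-3.35) and CENPA (-0.91), the histone H3 of centromeres. Of 27 genes that transcribe, process or degrade histone messages 3 were called, all lower, E2F1 (-0.45), CCNE1 (-0.66) and ERI1 (-0.35), a nuclease that trims the stem-loop. The stem-loop binder SLBP and the coactivator NPAT were not called. Of 14 histone chaperones, ASF1A (0.31) and RBBP4 (0.36) were higher, and CHAF1A (-0.68) and HJURP (-0.95) were lower. The background in this test was 24.0% of 14594 genes, and whether these lists differ from it was not tested.

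The 15 members reported in the literature to be made also with a poly(A) tail, such as HIST1H2BD and HIST2H2BE, had a basolateral median log2 difference of -0.51, with 11 of 15 called. The other members had -0.67, with 30 of 49 called. Members with and without the stem-loop in an annotated transcript had -0.66 and -0.67. The polyadenylated class took 35.3 ± 1.21% of the basolateral histone counts (SD, n = 20) and 36.8 ± 2.58% of the apical ones (SD, n = 21). No test of a difference between the classes was made.

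In the apical compartment 10 of 65 members were called between replicate numbers, all lower in replicate 3 than in replicate 1, against 12% of 15225 genes. In this fit the share is near the background. DESeq2 called 18 of 65 members and 2485 of 16219 genes, and edgeR without the filter on low counts called 4 of 68 members and 1494 of 26492 genes. The apical sum overlapped between the numbers, at 2638 to 4320, 1873 to 3725 and 1924 to 3817 CPM in replicates 1, 2 and 3. Ordered by KIT instead, it was 2638 to 4320 CPM in the 7 libraries of replicate 1, 3128 to 3817 CPM in the next 7 and 1873 to 2374 CPM in the 7 with the least KIT. The last 7 lay below all others. Their S phase sum of 1760 to 2034 CPM overlapped with the 1952 to 2629 CPM of the other 14. Apical replicate numbers 2 and 3 each mixed libraries of intermediate and of least KIT. For apical replicate 1 over the least-KIT libraries, the members' median ratio of mean CPM was 1.60, against 1.04 over all genes. For basolateral replicate 1 over replicate 3 it was 1.69 against 1.05. At a mean of at least 1 CPM, 61 and 62 of 63 members had a ratio above 1.

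The members called apically lay close together on the chromosome. Of the 10, 7 (HIST1H4F, HIST1H2BH, HIST1H2BG, HIST1H2BF, HIST1H3D, HIST1H3F and HIST1H2AE) lay in a stretch of 12 neighbouring members on chromosome 6, from HIST1H3D at 26196840 to HIST1H3G at 26271815 (GRCh38). The remaining 3, HIST1H2AL, HIST1H4J and HIST1H2BM, were among 53 tested members elsewhere. The stretch was chosen after its values were seen, so no test of its own is given. Within it, the mean CPM of replicate 1 was more than 2.5 times the mean of the 7 libraries with the least KIT in 9 of 12 members, which added HIST1H2AD and HIST1H3G to the 7. Outside it this held for 4 of 55 members with a value, the largest being HIST1H2AL at 3.50, and over all 14288 genes at a mean of at least 1 CPM for 561, or 3.93%.

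HIST1H2AE, an H2A gene, was the most abundant of the 9. It measured 108 to 168 CPM in the 7 libraries of apical replicate 1, 68.6 to 84.6 CPM in the 7 libraries with intermediate KIT and 14.7 to 28.1 CPM in the 7 with the least KIT. The 3 ranges did not overlap, a ratio of 6.05 between the first and the last mean, and the adjusted p over the replicate numbers was 0.0308 in edgeR and 0.0590 without the filter on low counts. HIST1H2BH, an H2B gene, parted in the same way, at 10.6 to 16.8, 4.67 to 9.11 and 2.04 to 3.79 CPM. HIST1H3G, an H3 gene, measured 9.54 to 20.9, 6.07 to 10.1 and 1.12 to 2.32 CPM, with its first and second ranges overlapping. HIST1H2AD had the largest ratio, 11.5, but was at 0 in most libraries of the last set, and its exon overlaps another gene on its strand.

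The 3 members of the stretch without such a ratio were HIST1H4E (ratio 1.53), HIST1H3E (1.60) and HIST1H1D (1.23). HIST1H1D, the H1.3 gene, measured 39.9 to 66.3, 53.9 to 65.2 and 37.8 to 51.5 CPM, and the first range overlapped both others. HIST1H4E, an H4 gene, measured 15.5 to 29.8, 15.2 to 21.2 and 10.9 to 18.2 CPM. These 3 genes lie between members with ratios above 2.5.

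Since the 9 genes were picked for their ratio between these apical libraries, their summed apical share restates that choice and is given as a description. The 9 genes together made up 6.79 to 8.53% of the histone counts in apical replicate 1, 4.0 to 4.65% in the 7 libraries with intermediate KIT and 2.29 to 2.74% in the 7 with the least. In the basolateral libraries, which the choice did not use, they made up 6.06 to 7.62%, with medians of 7.15, 6.98 and 7.04% in replicates 1, 2 and 3. Their share of the histone counts was thus alike in the 3 basolateral replicate numbers. The part of a KIT-bearing cell type in the apical pattern was not tested.

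**Figure D5:**
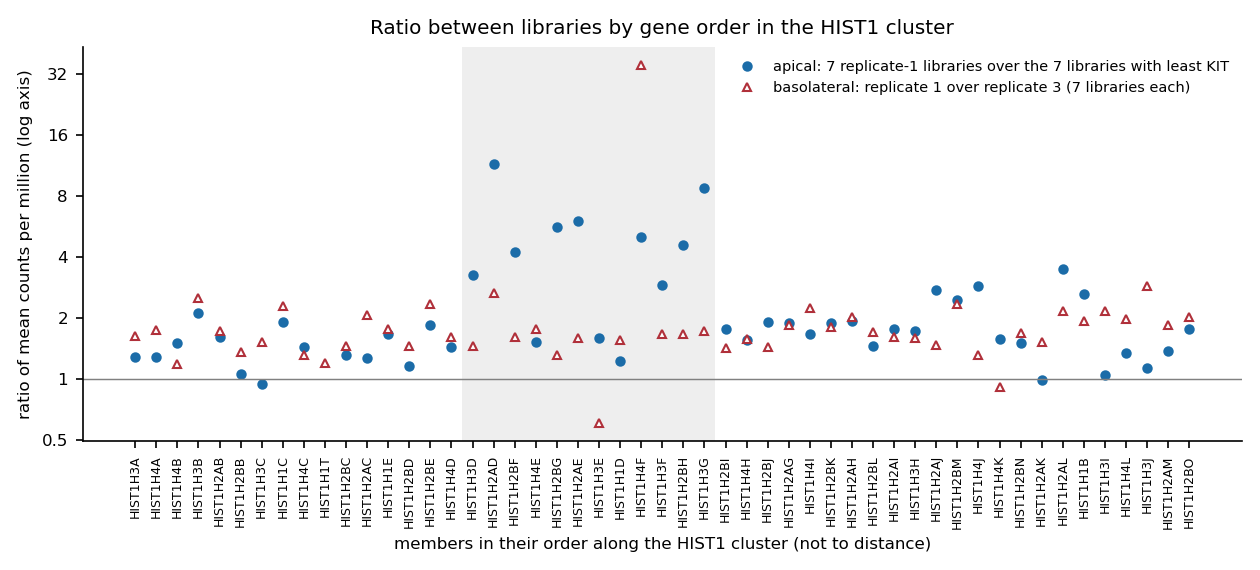
Ratios of mean CPM on a log axis for 51 members in their order along the HIST1 cluster. Circles compare the 7 apical libraries of replicate 1 with the 7 of least KIT (none for HIST1H1T, at 0 in the latter), and triangles compare basolateral replicates 1 and 3. In the shaded stretch from HIST1H3D to HIST1H3G 9 of 12 circles lie above 2.5, and the triangle of HIST1H4F lies at 35.3.

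RefSeq promoter windows (GRCh38.p14, 250 bases before to 50 after the start) were at hand for 56 members. The CCAAT box, searched as CCAAT on both strands, was in 83.9% of them against 35.7% of 27305 windows, in all H1, H2A, H2B and H3 windows and in 3 of 12 H4 windows. The octamer ATTTGCAT, searched on both strands and known as the site of the factor OCT1 in H2B promoters, was in 42.9% against 1.80%. It was in 10 of 13 H2A, 13 of 17 H2B, 1 of 9 H3 and 0 of 12 H4 and 0 of 5 H1 windows. The H3 window with the octamer, listed for HIST1H3D, is the same as that of the H2A gene HIST1H2AD. TATAAA was in 62.5% against 12%. Some windows overlap, since several H2A and H2B genes start back to back. The windows of HIST1H2AE, the most abundant of the 9 genes, of HIST1H4F and of HIST1H1D, whose apical ratio was below 2.5, are shown for comparison, in the direction of the gene with these motifs in capitals on either strand.
HIST1H2AE, chr6:26216671-26216970, plus strand: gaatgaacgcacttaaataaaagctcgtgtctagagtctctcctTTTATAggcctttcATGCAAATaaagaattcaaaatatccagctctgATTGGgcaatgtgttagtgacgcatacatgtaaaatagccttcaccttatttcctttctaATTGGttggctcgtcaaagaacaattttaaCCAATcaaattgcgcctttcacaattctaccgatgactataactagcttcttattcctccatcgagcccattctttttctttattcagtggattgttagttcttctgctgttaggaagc
HIST1H4F, chr6:26240143-26240442, plus strand: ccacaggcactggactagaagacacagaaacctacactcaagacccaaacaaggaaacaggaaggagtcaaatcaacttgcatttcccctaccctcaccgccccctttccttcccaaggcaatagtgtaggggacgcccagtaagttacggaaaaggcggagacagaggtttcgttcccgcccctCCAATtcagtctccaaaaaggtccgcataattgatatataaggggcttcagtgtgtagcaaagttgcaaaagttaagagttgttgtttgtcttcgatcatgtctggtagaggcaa
HIST1H1D, chr6:26234938-26235237, minus strand: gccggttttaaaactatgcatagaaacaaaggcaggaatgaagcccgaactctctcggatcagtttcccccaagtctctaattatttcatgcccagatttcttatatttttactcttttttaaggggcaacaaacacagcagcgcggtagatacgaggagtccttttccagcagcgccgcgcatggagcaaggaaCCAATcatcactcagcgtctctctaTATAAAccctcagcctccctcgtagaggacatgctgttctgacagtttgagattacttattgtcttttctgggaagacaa
Of the 9 members of the stretch with a ratio above 2.5, 6 had a window with the octamer. These were HIST1H3D, HIST1H2AD, HIST1H2BF, HIST1H2BG, HIST1H2AE and HIST1H2BH, where HIST1H3D and HIST1H2AD share 1 window. That window, from 26199244 to 26199543, borders the GENCODE start of HIST1H2AD at 26199243 on the minus strand. The GENCODE start of HIST1H3D, on the same strand, is at 26197250. The bases just before that start were not searched for HIST1H3D. The windows of HIST1H4F, HIST1H3F and HIST1H3G did not hold the octamer. The 6 are not separate windows, since HIST1H2AD and HIST1H2BF start 277 bases apart and HIST1H2BG and HIST1H2AE 283 bases apart. All but HIST1H3D are H2A or H2B genes, of which 10 of 13 and 13 of 17 windows held the octamer. A difference of the 9 from other members was not tested.

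The control cultures of both compartments were compared next. Of 62 tested members 11 were called in edgeR, against a background of 54.1% of 14198 genes; whether these shares differ was not tested. Of the 11, 7 were higher apically and 4 lower. HIST1H3C, the leading H3 message, had the smallest p. It measured 49.2, 60.6 and 54.8 CPM in apical and 169, 116 and 125 CPM in basolateral replicates 1, 2 and 3, a log2 difference of -1.46 ± 0.16 without overlap (adjusted p = 0.000343 in edgeR).

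HIST1H3J and HIST1H3I, both H3 genes, were higher apically. HIST1H3J measured 6.87, 9.01 and 6.85 CPM against 1.53, 2.5 and 1.09 CPM (log2 difference 2.0 ± 0.40, adjusted p = 0.00473 in edgeR). Its exon overlaps that of the more abundant H2A gene HIST1H2AM on the same strand. HIST1H3I measured 13.9, 13.1 and 10.4 CPM against 7.12, 5.10 and 3.93 CPM (1.06 ± 0.27, adjusted p = 0.0122 in edgeR). HIST1H4C, the H4 gene, measured 103, 102 and 71.4 CPM against 48.4, 24.1 and 48.3 CPM (1.04 ± 0.29, adjusted p = 0.0218 in edgeR).

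The H2B genes HIST1H2BE (1.69 ± 0.47) and HIST1H2BL (0.82 ± 0.27), the H2A gene HIST1H2AC (0.52 ± 0.19) and HIST1H4F (3.02 ± 1.02) were also higher apically. The members lower apically besides HIST1H3C were HIST2H2AC (-0.65 ± 0.16), HIST1H4E (-0.73 ± 0.25) and HIST1H3D (-0.93 ± 0.32). RLE scaling called 7 higher and 2 lower, total-count scaling, which moved the median over all genes from -0.01 to 0.14, called 7 and 1. Leaving out apical control replicate 2 left 4 calls and leaving out basolateral control replicate 3 left 7.

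Of the genes that regulate histone messages several differed between the controls, with 15 of 27 called, 5 higher and 10 lower apically, a share near the background of 54.1% over all genes. NPAT, the coactivator of histone transcription, measured 26.8 ± 1.86 CPM apically and 60.2 ± 2.6 CPM basolaterally (SD, n = 3; log2 difference -1.31 ± 0.12, adjusted p = 0.000119 in edgeR). CDK2, the kinase that acts on NPAT, measured 37.4 ± 5.52 against 78.6 ± 7.18 CPM (-1.22 ± 0.12), and SLBP measured 67.6 ± 4.10 against 92.5 ± 6.46 CPM (-0.59 ± 0.11). Both were called. Of 14 chaperones 8 were lower and 1 higher apically, where 27.4% of all genes were lower and 26.7% higher. Among the replacement histones H1F0, a linker histone of resting cells, was lower apically at 97.4 ± 3.66 against 194 ± 26.5 CPM.

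Against measures of library quality the histone sum was described over libraries of like kind, namely the 3 apical sets of 7 by KIT and the 7, 6 and 7 basolateral libraries of replicates 1, 2 and 3. Pearson's r was computed for 11 measures and is given as a description, in the order just named, since all points share the total count of their library. With the summed ribosomal protein messages r was 0.85, 0.79, 0.88, 0.53, 0.42 and 0.83, and without the 2 libraries farthest from the median 0.73, 0.87, 0.81, 0.49, -0.05 and 0.88. With the replacement histones it was 0.85, 0.68, 0.87, 0.64, 0.20 and 0.65, and without those 2 libraries 0.69, 0.51, 0.75, 0.15, 0.75 and -0.52. Both were positive in 6 of 6 sets, and each had 1 negative value in the smaller sets. With MALAT1, a long nuclear RNA, r was -0.66, -0.64, -0.73, -0.23, -0.74 and -0.14, and without the 2 libraries -0.91, -0.74, -0.24, 0.47, 0.74 and -0.50.

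With the S phase genes r was 0.68, 0.83, 0.21, -0.18, 0.54 and 0.83, and without the 2 libraries 0.60, 0.43, 0.39, 0.29, -0.39 and 0.47. With the mitochondrial messages it was -0.83, -0.24, -0.23, 0.73, -0.84 and -0.08, and without the 2 libraries -0.18, 0.05, 0.03, 0.61, -0.22 and 0.76, so the values of -0.83 and -0.84 rested on those libraries. With the total count it was 0.61, -0.34, 0.38, 0.26, 0.16 and 0.65, and without the 2 libraries 0.49, -0.13, 0.21, 0.11, 0.75 and 0.49. For the others r ran from -0.10 to 0.90 with H2AFZ, -0.31 to 0.71 with the chaperones, 0.01 to 0.58 with the genes of G2 and mitosis, -0.52 to 0.66 with the number of genes detected and -0.82 to 0.70 with the share of the 10 most abundant genes. The sign of r differed between sets for the S phase genes, the mitochondrial messages and the total count. The plan grouped apical libraries by replicate number, and the sets by KIT took their place after the data were seen. In apical replicates 2 and 3, which each mix libraries of intermediate and least KIT, r with the S phase genes was 0.99 and 0.92. There it was 0.98 and 0.96 with the ribosomal protein messages and 0.45 and -0.33 with the total count.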

How the data were processed

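The authors deposited a table of raw read counts per gene, whole numbers for 57773 genes in 41 libraries. Per the labels' protocols, 1 µg of total RNA, purified with QIAGEN reagents, went into each library of the SMARTer Stranded Total RNA HI Mammalian type. The submitters' processing notes name the build GRCh38.p13. Which aligner, counter and gene annotation made the counts is not given in the sources used here. CPM values were computed from the deposited counts over all genes, with no further scaling. Tests used edgeR 4.0.16 (quasi-likelihood F test, robust, TMM, filterByExpr) in R 4.3.3, with 1 fit per compartment, Benjamini-Hochberg adjustment over all genes tested and a threshold of 0.05. The controls of both compartments were fitted alone, and differences between compartments in all 41 libraries. The test over replicate numbers added the number to the groups.

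Alternatives were RLE and total-count scaling, no filter on low counts, the replicate number as a block, DESeq2 1.42.0, other sets of libraries and each library left out. The methods were tested on simulated data. No library was a copy of another, since the lowest chi-square per degree of freedom was 3.82. Among comparisons with 3 same-numbered pairs, such libraries deviated together in every pair, with correlations over 0.1, in 4 comparisons with control. These were apical spheres 1000 and rods 1000 and basolateral stars 1000 and stars 500. Basolateral spheres 500 had only 2 pairs, with correlations of 0.680 and 0.721. This pairing comes from the data, not the labels.

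Genes were named by a rule: the most abundant members, those of each subclass and locus, and up to 10 called members in each direction by p, or the 2 with the smallest p where none was called. Other members named along the chromosome were chosen after their values were seen. The members and the gene lists were chosen with earlier results of these data known. P-values set a difference against the spread between these libraries. In the tests over replicate numbers, the libraries that share a number came from different exposure groups.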

Additional observations from a re-analysis of the deposited data

How the results depend on the processing

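The 0 calls among members in the 12 particle comparisons and both tests over all groups remained 0 under every alternative run, DESeq2 and each library left out included. Between apical replicate numbers, 10 members were called, 4 without the filter on low counts and 18 with DESeq2. Between the controls, 11 members were called, 6 in a fit of all 41 libraries, and 4 to 12 with 1 library left out, where 4 came without apical control replicate 2 and 7 without basolateral control replicate 3. With the replicate number as a block the controls gave 17 calls, although their same-numbered libraries correlated at only 0.04 to 0.17 and share only a number; the block changed no other count of member calls. For HIST1H4K in apical spheres 1000 the fitted value of -5.65 depends on the prior count and is no fold, since apical control replicate 3 was the one library of either group with counts; it was 0 without that library, and -6.26 to 0 over all libraries left out in turn. Over all pairs of a named gene and a setting, the call was lost in 46. Of these, 40 were in the comparison of the controls and 6 in the apical replicate numbers, and the cause was not tested. The depth limits members near the floor of 3 counts, and 2 or 3 libraries a group left a median standard error of at least 0.356 on the log2 scale for a particle effect.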
